A study of Mus musculus with 3 samples.

Results

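The nuclear factor I family consists of 4 genes in the mouse, Nfia, Nfib, Nfic and Nfix, out of 18194 genes named on the array, and was followed through every probe set that names 1 of them and no other gene. The platform annotation gave 23 such probe sets among 34958 named ones, of which 6 measure Nfia, 7 Nfib, 5 Nfic and 5 Nfix. The family was chosen by the signals of Nfix, whose brightest probe set differed most between the arrays, so the values of Nfix are a description and support nothing. Ureters, the tubes that carry urine out of the kidney, had been cut free between the pelvis and the bladder of wild-type FVB/N mice at embryonic day 15, which is Theiler stage 23. The samples form 1 group of 3, called replicates 3, 8 and 9 in the labels, each not pooled and with no second genotype, treatment or age beside them. Whether these are separate animals is not given in the labels, and their spread may be technical in part. Each RNA went through 2 rounds of amplification before 1-colour hybridisation to the Affymetrix Mouse Genome 430 2.0 array. With 3 arrays the precision of each value is limited by their number, and no test between groups could be made.

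Nuclear factor I proteins are transcription factors that bind DNA as homodimers or heterodimers through a conserved N-terminal domain, while their C-terminal parts differ and activate or repress transcription. Nfia is known for the switch to glial cells in the nervous system, and its loss in mice and people is known to cause urinary tract defects including reflux of urine into the ureter. Nfib is known for lung and forebrain maturation, Nfic for tooth root formation, and Nfix for the fetal programme of skeletal muscle and for neural stem cells.

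The family's own binding motif was looked for in front of its genes, because these proteins can act on each other's promoters and the bright Nfix probe sets had the widest spread between arrays. RefSeq windows of 300 bases, 250 before and 50 after a transcript start, were at hand for 3 of the 4 genes in build GRCm38.p6, 1 for Nfia, 1 for Nfic and 4 for Nfix. The motif was searched on both strands as its single arm TTGGC and as the whole palindrome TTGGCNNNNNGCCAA, and the arm lies inside the palindrome. The arm occurred in 3 of the 4 Nfix windows, and those 3 are shown from 5′ to 3′ on the gene's strand with each match in capitals. Starts are numbered along the gene's strand.
Nfix start 2 (chr8:84775779-84776078, minus strand): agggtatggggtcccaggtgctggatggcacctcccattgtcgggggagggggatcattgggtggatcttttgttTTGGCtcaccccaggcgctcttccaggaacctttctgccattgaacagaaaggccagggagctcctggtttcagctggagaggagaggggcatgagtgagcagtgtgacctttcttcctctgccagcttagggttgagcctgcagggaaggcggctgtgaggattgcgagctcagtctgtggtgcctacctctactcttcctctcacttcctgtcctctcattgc
Nfix start 3 (chr8:84773361-84773660, minus strand): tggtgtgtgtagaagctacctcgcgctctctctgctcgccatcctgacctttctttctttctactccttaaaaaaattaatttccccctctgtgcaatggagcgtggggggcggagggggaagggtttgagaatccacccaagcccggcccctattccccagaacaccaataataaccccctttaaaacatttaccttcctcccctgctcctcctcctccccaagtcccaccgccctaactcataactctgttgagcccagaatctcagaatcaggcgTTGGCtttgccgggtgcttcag
Nfix start 4 (chr8:84772826-84773125, minus strand): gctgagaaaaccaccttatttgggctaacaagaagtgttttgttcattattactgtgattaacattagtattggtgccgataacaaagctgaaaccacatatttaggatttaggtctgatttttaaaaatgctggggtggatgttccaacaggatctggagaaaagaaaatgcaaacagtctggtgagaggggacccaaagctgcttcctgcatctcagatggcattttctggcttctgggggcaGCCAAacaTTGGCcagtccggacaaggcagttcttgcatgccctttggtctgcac
The window of Nfix start 4 held 2 arms that face away from each other, and the other 2 windows held 1 each. No arm was found in the window of Nfix start 1, in that of Nfia (chr4:97581693-97581992) or in that of Nfic (chr10:81427124-81427423). Over all 32851 windows of this length, 46.7% held the arm and 0.0365% the whole palindrome, which none of the family's windows held. The Nfic window was rich in GC (63.0% of bases) and held 4 GC boxes, searched as GGGCGG on both strands, a motif found in 35.7% of all windows. A match of letters is a description and not a binding site, and the array does not tell which start a transcript used.

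Before the levels, a background was needed, because detection calls are not among the values used here. A probe set was counted as above background on an array when its signal exceeded the 95th percentile of 55 measured genes that belong to organs not in the dissection, among them the eye, testis, pituitary and thyroid. That level was 356, 322 and 502 in replicates 3, 8 and 9. Of the family's probe sets, 8 of 23 were above background on all 3 arrays, against 42.7% of all named probe sets. They were 2 of Nfia, 4 of Nfib, 2 of Nfix and none of Nfic. Another 6 were above background in replicate 9 alone, against 1.36% of named probe sets, and without Nfix it was 5 of 18. In all, 14 of 23 were above background on at least 1 array, against 54.8% of named probe sets, and 9 on none. A probe set's brightness also depends on its probes, so the members cannot be ranked by signal, and only differences between arrays within a probe set are compared.

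The labelled tissue was checked against fixed marker genes of its layers, beside the 54.2% of all named genes that were above background on all arrays by their brightest probe set. Of these markers, 12 of 15 of the urothelium, 10 of 13 of the ureteric mesenchyme and 9 of 13 of smooth muscle were above background on all arrays. Several of these shares are not far from that of all genes. Of the urothelial plaque genes, Upk1b and Upk3b were above background on all arrays, Upk3a in replicate 8 alone, and Upk1a and Upk2 on none. Of genes of neighbouring tissues, all 8 measured hepatocyte genes, 9 of 12 skeletal muscle genes, 8 of 12 neuron and glia genes and 3 of 10 nephron genes were above background. All 7 measured erythroid genes were as well. The hepatocyte gene Afp had signals of 54027, 34837 and 48948 in replicates 3, 8 and 9. Krt8, the brightest gene of the urothelium list, had 20340, 23741 and 17646. How much of the family's signal came from other tissues was not tested. In a whole tissue, fewer cells of a type and less RNA per cell cannot be told apart. Array medians were 234, 198 and 273 in replicates 3, 8 and 9.

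Nfia gave strong signal from 2 probe sets, and these 2 disagreed on whether the arrays differed. Probe set 1421163_a_at had signals of 13471, 25170 and 38037 in replicates 3, 8 and 9, or 25559 ± 12288 (SD, n = 3). Probe set 1456087_at had signals of 7559, 7763 and 8011 in replicates 3, 8 and 9, or 7778 ± 226 (SD, n = 3). The first was 2.82-fold higher in replicate 9 than in replicate 3, and the second 1.06-fold. On the log2 scale the range over the arrays was 1.50 for the first and 0.08 for the second, against a median range of 0.56 over the 14932 named probe sets above background on all arrays. Without replicate 3 the range of the first was 0.60.

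The other 4 Nfia probe sets were dim, and 2 of them gave a level in replicate 9 only. Probe set 1438236_at had signals of 235, 264 and 1185 in replicates 3, 8 and 9. Probe set 1446990_at had 177, 164 and 771. Both were above background in replicate 9 alone, where they were at least 3.33-fold and at least 2.17-fold higher than the background of the other arrays. Probe sets 1427733_a_at (98.8, 100.3 and 304.6) and 1421162_a_at (8.34, 34.3 and 92.3) were above background on no array. The last shares its annotated transcript, AF326553, with the brightest Nfia probe set, so even probe sets named for 1 transcript were far apart in brightness.

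Nfib had the most probe sets above background and the member signal that varied least for a brightest probe set. Probe set 1454834_at had signals of 24048, 23341 and 20331 in replicates 3, 8 and 9, or 22574 ± 1974 (SD, n = 3), with a log2 range of 0.24. It was lowest in replicate 9, the array in which most other members were highest. Probe set 1427680_a_at had 10945, 7965 and 14221, and was highest in replicate 9 and lowest in replicate 8. Probe set 1434102_at had 1712, 1795 and 2327, a log2 range of 0.44. These 3 probe sets differed by less than 2-fold between any pair of arrays.

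The remaining Nfib probe sets did not follow them. Probe set 1448288_at was above background on all arrays with signals of 636, 1333 and 3993 in replicates 3, 8 and 9, which is 6.28-fold higher in replicate 9 than in replicate 3. Only 55 of the 14932 named probe sets above background on all arrays had a log2 range at least as wide as its 2.65. Probe set 1416293_at, annotated to the same transcript (BB832504), had 195, 205 and 121, below background on every array. Probe set 1434101_at had 182, 273 and 819, above background in replicate 9 alone and there at least 2.30-fold over the background of the other arrays. It shares the transcript BI687652 with 1454834_at, which was lowest in replicate 9, and with 1434102_at, which was highest there. Probe set 1438244_at had 43.8, 42.0 and 623, above background in replicate 9 alone and there at least 1.75-fold over the background of the other arrays.

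Nfic was the member with no probe set above background on all arrays. Its brightest, 1435527_at, gave 254, 181 and 910 in replicates 3, 8 and 9. It was above background in replicate 9 alone, at least 2.56-fold over the background of the other arrays. Probe sets 1429148_at (192, 129 and 117) and 1427665_a_at (109, 116 and 78.5) were below background on every array. Probe sets 1422565_s_at (4.58, 60.3 and 26.2) and 1450661_x_at (8.28, 12.7 and 22.8) were far below background, and values at this level carry no order. Only 1 Nfic probe set on 1 array thus gave a level, and the other 4 give no direction.

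Nfix had 2 probe sets above background on all arrays, and in both replicate 9 stood far apart. Probe set 1436363_a_at gave 817, 2546 and 21104 in replicates 3, 8 and 9. Probe set 1436364_x_at had 589, 1337 and 12878. Replicate 9 was 25.8-fold and 21.9-fold higher than replicate 3, and replicate 8 was 3.12-fold and 2.27-fold higher than replicate 3. The log2 ranges of 4.69 and 4.45 were the widest and the next widest of the 14932 named probe sets above background on all arrays, which is the value by which the family was chosen. Both are annotated to the transcript AW049660, so they are not independent measurements, and the ending _x_at marks probes that may also bind other transcripts.

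The other Nfix probe sets gave little signal. Probe set 1423493_a_at had signals of 152, 293 and 624 in replicates 3, 8 and 9, above background in replicate 9 alone and there at least 1.75-fold over the background of the other arrays. Probe set 1459909_at had 148, 190 and 225, and 1451443_at 16.5, 6.37 and 10.2, both below background on every array. The mean log2 signal over all 5 probe sets had a range of 2.23, against 4.69 for the brightest alone. Without replicate 9 the brightest probe set's range was 1.64.

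**Figure D1:**
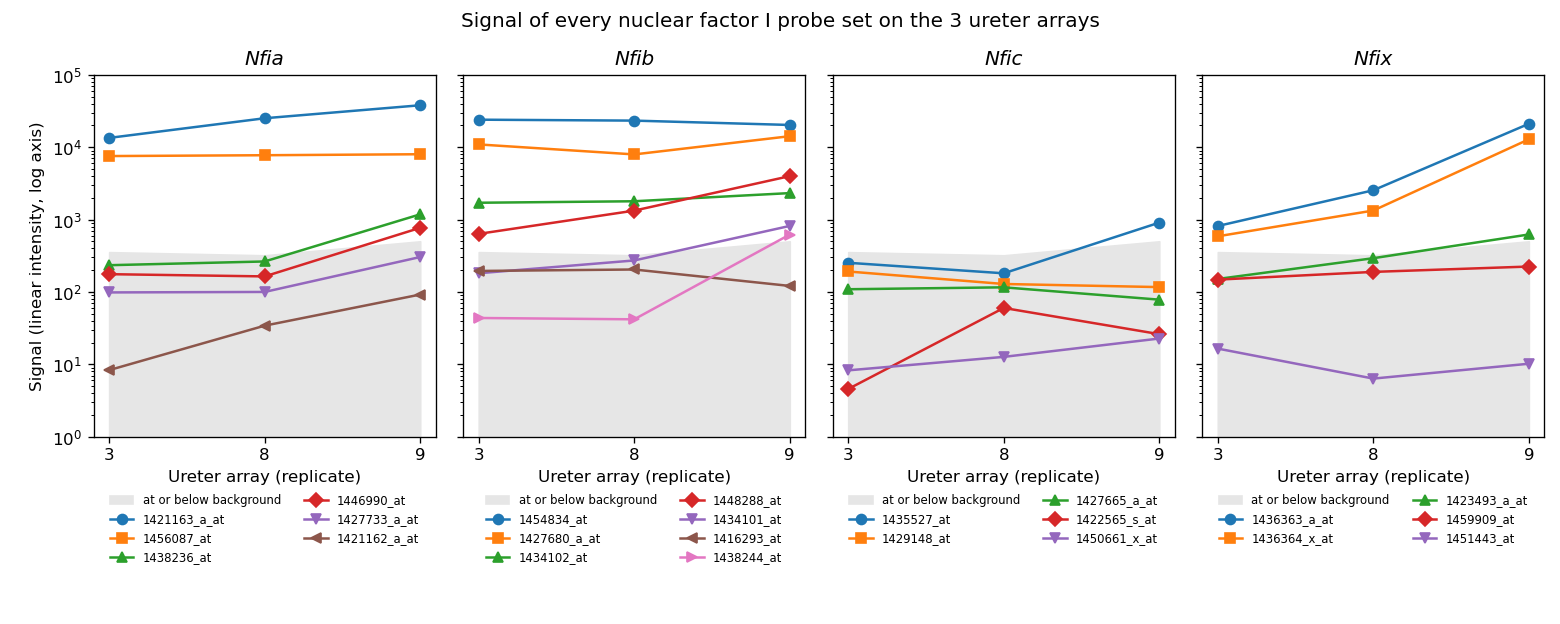
Signal of each of the 23 nuclear factor I probe sets (y axis, linear intensity on a log axis) on the ureter arrays of replicates 3, 8 and 9 (x axis), 1 panel per gene; lines only join the points of a probe set, and grey marks signals at or below background. The upper Nfix pair reaches 21104 and 12878 in replicate 9, while the brightest Nfib probe set stays between 20331 and 24048.

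Replicate 9 was the highest array for most family probe sets with a level on all arrays. Of those 8, 7 were highest in replicate 9, against 34.2% of all named probe sets above background, while 1 was highest in replicate 3 (31.4% of named) and none in replicate 8 (34.4%). Without the Nfix pair it was 5 of 6, made up of 2 of 2 for Nfia and 3 of 4 for Nfib. The deposited scaling leaves the median of replicate 9 over all probe sets higher than that of the other arrays by 0.34 on the log2 scale. Among the named probe sets above background on all arrays, the median difference of replicate 9 from the others was -0.03. With quantile normalization 7 of 8 were again highest in replicate 9 (31.8% of named), and with each array centred on its median 5 of 8 (13.8%). Both counts include the Nfix pair, which was highest in replicate 9 under each scaling. Outside that pair, median centring left Nfia 1421163_a_at and Nfib 1427680_a_at and 1448288_at highest in replicate 9. The flat Nfia probe set 1456087_at turned with the scaling, its difference between replicate 9 and the mean of the others being 0.06 as deposited and -0.28 with median centring. Nfib probe set 1434102_at, highest in replicate 9 as deposited, was highest in replicate 8 with median centring, as were 1456087_at and 1454834_at.

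A stricter count asked that replicate 9 be above background and at least 2-fold higher than both other arrays, with those set no lower than their background. It took in 7 of 23 family probe sets, against 2.35% of all named probe sets. They were 2 of Nfia, 2 of Nfib, 1 of Nfic and 2 of Nfix, and the 3 genes other than Nfix gave 5 of 18. Of those 5, only Nfib 1448288_at was above background on all arrays. The others were so in replicate 9 alone, and passed only through the array in which they were high. No family probe set met the same criterion for replicate 3 (0.792% of named probe sets) or replicate 8 (0.26%), and none was at least 2-fold lower in replicate 9 than in both others (0.389%). With background at the 99th percentile of the reference list the count was 3, namely the Nfix pair and Nfib probe set 1448288_at. The share of all named probe sets was not computed at that setting. Of the 8 family probe sets above background on all arrays, 4 had a log2 range of at least 1, against 16.8% of named probe sets above background. Without the Nfix pair, whose range chose the family, it was 2 of 6, and with background at the 99th percentile 2 in all. The probe sets of a gene share their RNA, so these counts are not counts of independent measurements, and the spread of Nfix was known when the family was chosen.

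**Figure D2:**
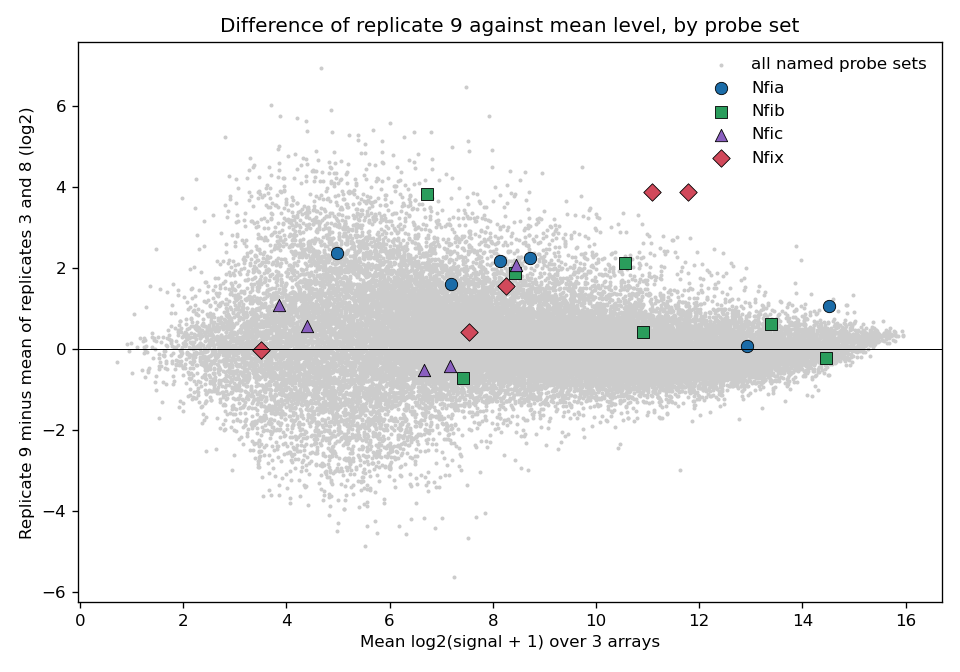
Difference of replicate 9 from the mean of replicates 3 and 8 (y axis, log2) against the mean log2(signal + 1) over the 3 arrays (x axis) for all 34958 named probe sets (grey) and the 23 family probe sets (coloured by gene). The Nfix pair lies at the upper edge of bright probe sets, and the brightest Nfib probe set lies just below 0.

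Disagreement between probe sets of a gene was measured where a level was at hand. For each of the 3441 genes with at least 2 probe sets above background on all arrays, the log2 difference of replicate 9 from the mean of the others was taken per probe set, and the gap between the highest and the lowest was recorded. Its median was 0.52. The gap was 2.34 for Nfib over 4 probe sets, and 71 genes had one at least as wide. It was 0.98 for Nfia, with 730 genes at least as wide, and 0.012 for the Nfix pair, which shares 1 transcript. A gene with more probe sets had more chances of a wide gap. The strict count for replicate 9 was reached by 6.19% of named probe sets in the third of 4 equal bands of mean level, and by 1.64% and 1.58% in the bands just below and above it.

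Some control probe sets were also highest in replicate 9, but not all. The Gapdh control at the 3′ end had signals of 31713, 22026 and 30016 in replicates 3, 8 and 9, highest in replicate 3. The middle one fell from 11372 and 7809 to 5302, and the 5′ one was highest in replicate 9. The beta-actin control probe set at the 5′ end of the transcript had signals of 2868, 3932 and 12348 in replicates 3, 8 and 9, and the one at the 3′ end 21384, 25547 and 49451. The 3′ to 5′ ratio of beta-actin was accordingly 7.45, 6.50 and 4.005, the lowest in replicate 9. The same ratio of Gapdh was 18.9, 15.1 and 16.4, that of the transferrin receptor 7.67, 9.57 and 7.21, and that of 18S ribosomal RNA 1.07, 1.45 and 1.19, and none of these 3 set replicate 9 far apart. The 3′ control of 18S, which has no poly(A) tail, had signals of 13767, 17568 and 49634. The part of these differences in the nuclear factor I values was not tested.

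Markers of nerve cells and glia were lowest in replicate 3 and highest in replicate 9 as a sum, the order of the bright Nfix pair. Erbb3, Sox10, S100b and Gfap were instead lowest in replicate 8, and the other genes of the list in replicate 3. The summed signal over the list's 12 measured genes was 13994, 23010 and 33169 in replicates 3, 8 and 9. Of the 12, 9 were highest in replicate 9, against 33.3% of all named genes by their brightest probe set. Those 9 include near ties in Th (366, 1036 and 1058) and S100b (522, 314 and 532), and Gfap, below background throughout. The count was not repeated under other scalings. The neurofilament gene Nefl had signals of 2922, 5571 and 10650, the microtubule regulator gene Stmn2 1425, 5676 and 6761, and the noradrenaline synthesis gene Dbh 622, 1190 and 2138. The neuregulin receptor gene Erbb3 differed less, with 4116, 3251 and 4386. Other neuronal genes of the list were highest in replicate 8, namely Elavl4 (1501, 1827 and 1543), Gap43 (755, 1716 and 1354) and Tubb3 (144, 552 and 536). Sox10 had 307, 206 and 632 and was above background in replicate 9 alone, and Gfap was above background on no array. The summed markers of macrophages (24505, 13853 and 31377) and of fibroblasts and matrix (284128, 253943 and 292706) were also highest in replicate 9. The macrophage order rests on Csf1r (8111, 5183 and 17559), since the other 10 genes summed to 16395, 8670 and 13817, highest in replicate 3. Without Nefl the other 11 neuron and glia genes summed to 11073, 17439 and 22519. The sums of smooth muscle (116987, 115885 and 109382) and skeletal muscle (77911, 66836 and 65452) were highest in replicate 3. Their part in the Nfix values was not tested.

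**Figure D3:**
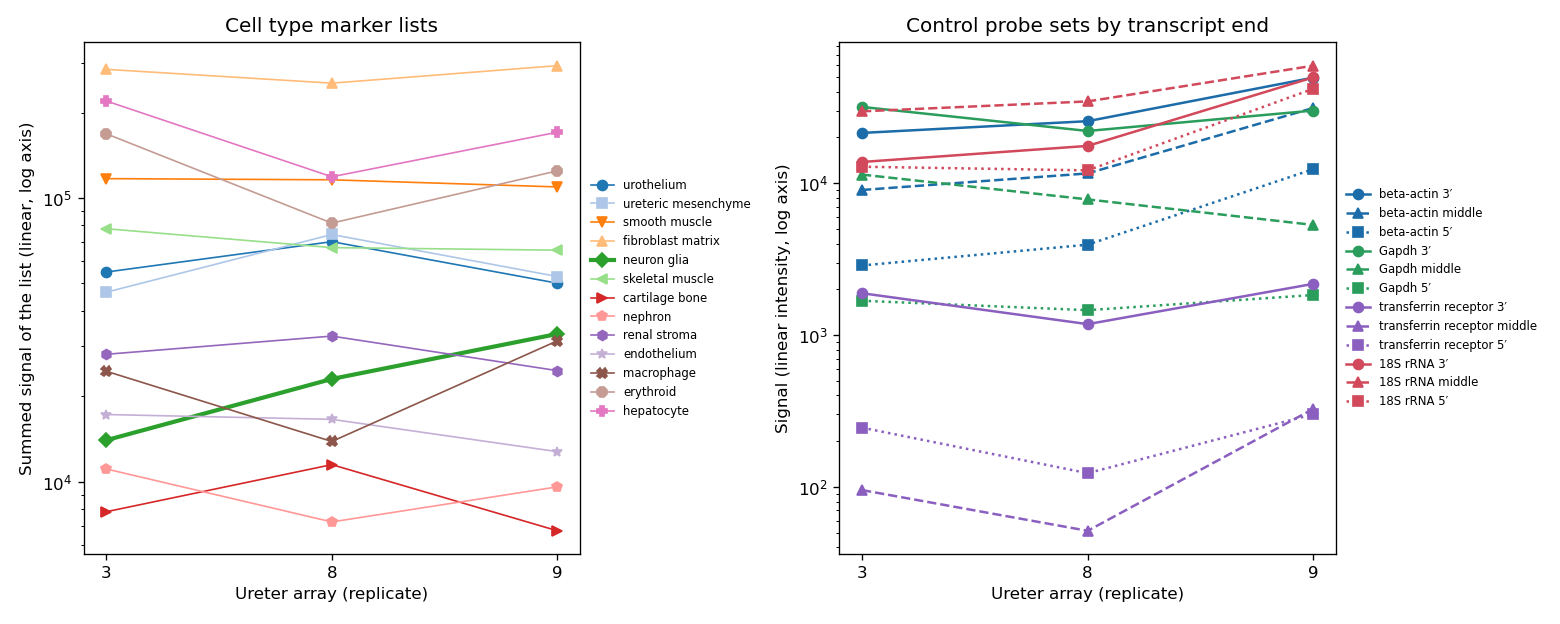
Left, summed signal of each fixed cell type marker list (y axis, linear intensity on a log axis) on the arrays of replicates 3, 8 and 9 (x axis), with the neuron and glia list drawn thick; right, the control probe sets at the 3′ end, middle and 5′ end of 4 transcripts on the same axes. The neuron and glia sum is 13994, 23010 and 33169, and the beta-actin 5′ control 2868, 3932 and 12348.

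Genes that nuclear factor I proteins are known to regulate in other tissues were followed as a list of 20, of which 19 were measured, each by its brightest probe set. Of these, 14 were above background on all arrays, against 54.2% of all named genes. Among the 14, 3 had a log2 range of at least 1, against 14.6% of named genes above background, namely Apcdd1, Fabp7 and Slc1a3. The median range of the 14 was 0.58, against 0.54 over all 9864 named genes above background. The median range of the list was thus close to that of all genes.

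Only Fabp7 and Slc1a3 met the strict count for replicate 9, 2 of 19 against 1.17% of all named genes. Fabp7, a fatty acid binding protein gene of radial glia that also stands in the neuron and glia list, had signals of 1121, 1533 and 3363 in replicates 3, 8 and 9. Slc1a3, a glutamate transporter gene of glia, had 479, 427 and 1062. That both were highest in replicate 9 was fixed by the count that picked them. Over the whole list, 6 of 19 genes were highest in replicate 9, against 33.3% of all named genes. The list's median log2 difference of replicate 9 from the mean of the others was -0.14. Apcdd1, a WNT inhibitor gene, was instead highest in replicate 8, with signals of 1843, 6714 and 2822.

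The members of the list that varied least were Insc, Nfatc4 and Eno3. Insc, which orients the division of progenitor cells, had signals of 668, 697 and 695, Nfatc4, a transcription factor gene, 4292, 4466 and 4648, and the muscle enolase gene Eno3 3195, 3072 and 2848. Ezh2, a histone methyltransferase gene, had 14891, 12815 and 9834 and was lowest in replicate 9. The creatine kinase gene Ckm had 1944, 683 and 391, with replicate 9 below background. Sox9 was also above background on 2 arrays, and Gfap, Aqp4 and Cntn2 on none. Levels on all arrays are therefore at hand for 14 members, which do not share 1 pattern across the arrays. The list does not give the direction of regulation, so the lack of 1 pattern says nothing of whether the proteins acted.

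**Figure D4:**
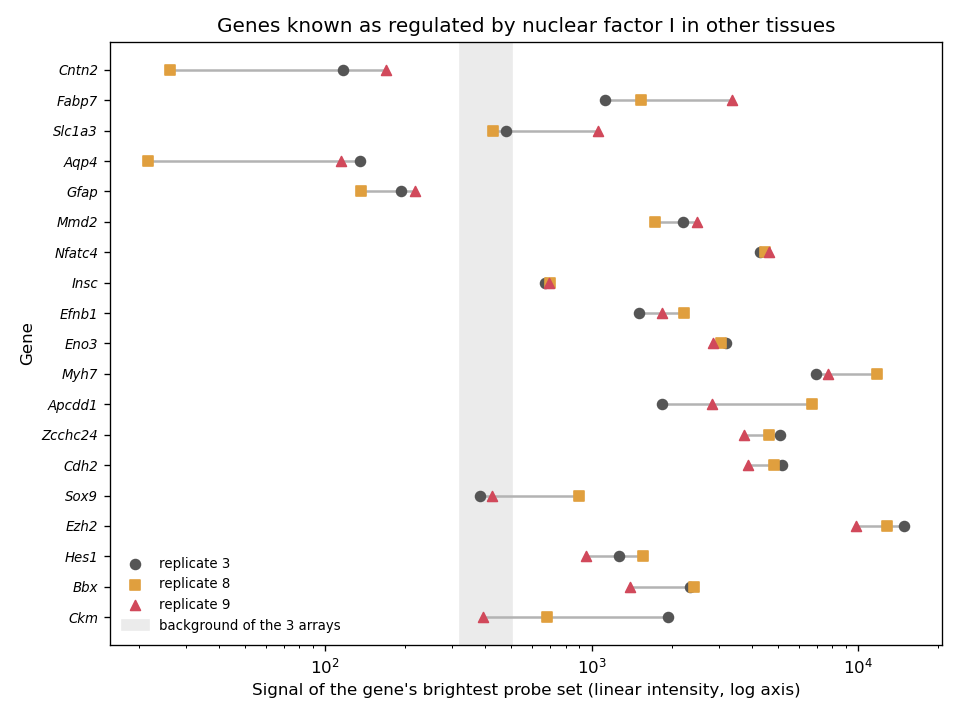
Signal of the brightest probe set (x axis, linear intensity on a log axis) of each of the 19 measured genes known as regulated by nuclear factor I elsewhere (y axis), with 1 point per array and a line from the lowest to the highest; the grey band spans the background of the 3 arrays. Fabp7 and Slc1a3 are highest in replicate 9 (3363 and 1062), and Ckm is lowest there (391).

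Genes with a pattern like that of each member were sought among the named genes above background, by the largest difference on any of the 3 arrays between log2 deviations from the 3-array mean. For Nfix, none of 9863 genes came within 0.25. The nearest were the teneurin gene Tenm2 (0.39), with signals of 470, 1503 and 8225 in replicates 3, 8 and 9, the splicing factor gene Srrm2 (0.76), the chromatin gene Gatad2b (0.95), the WNT effector gene Tcf7l1 (1.00) and the nicotinic receptor gene Chrna7 (1.04). All of these were highest in replicate 9 by the probe set used, which the search for a pattern like that of Nfix had fixed beforehand. For the brightest Nfia probe set, 105 genes came within 0.25, the nearest being Mettl2 (0.016), Pard3 (0.032) and Appbp2 (0.039). For Nfic 11 of 9864 did, led by Zap70 (0.075), Pdgfrl (0.12) and Col4a6 (0.14), though 2 of the Nfic values compared were below background. For the flat Nfib probe set, 3465 genes did, the nearest being Phf3 (0.0048), Arpp19 (0.0061) and Jmjd1c (0.0069). With 3 arrays, likeness of this kind describes a shape and says nothing of shared function.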

How the data were processed

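The authors deposited 1 table of linear intensity values, 1 signal per probe set and array, and per the submitters' processing notes GCOS was used, with no version or setting stated. The 2% trimmed mean was 1500 on each array while medians differed, so the arrays had been scaled to a common mean and not quantile normalized. How background was corrected is not given in the sources used here.

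The platform annotation named the probe sets. Of 45101, 34958 had 1 symbol, 932 had several (none of them a family member) and 9211 are not named here. All 23 family probe sets matched RefSeq by Entrez ID. Values were analysed as log2(signal + 1) in Python 3.11.15 with pandas 2.3.3. Where 1 probe set stood for a gene, it was the one of highest mean on that scale. The reference list for background held 59 genes, 55 of them measured.

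Genes named were all family probe sets, the genes nearest in pattern (up to 5 for Nfix, 3 for each other member), the extremes of the regulated list and its members not above background, and the 3 brightest genes of the neuron and glia list. Ezh2, Sox10, S100b, Th, Dbh, Elavl4, Gap43, Tubb3, Csf1r, Afp, Krt8, Upk1a, Upk1b, Upk2, Upk3a and Upk3b were singled out after their values were seen. The family and all lists were chosen with earlier results of these data known. Alternatives were other scalings, pseudocounts of 16 and 64, the 90th and 99th percentile as background, background on at least 2 arrays, no filter, averaging a gene's probe sets, dropping those with the endings _x_at or _s_at, and leaving out each replicate.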

Additional observations from a re-analysis of the deposited data

How the results depend on the processing

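The count of family probe sets above background, 8 as reported, was 6 at the 99th percentile of the reference list, 7 without the endings _x_at or _s_at, and 8 under the other alternatives that can give it. The count with a log2 range of at least 1, 4 as reported, was 2 with background at the 99th percentile and 15 with no filter, and lay between 3 and 4 when a replicate was left out. The count at least 2-fold higher in replicate 9, 7 as reported, was examined under alternatives chosen after seeing the data. It was 3 at the 99th percentile, the Nfix pair among them, 11 with no floor at background and 7 to 8 without replicate 3 or 8. For these counts, the share of all named probe sets was computed only at the reported setting. The median log2 range was 0.85 over all named probe sets, against 0.56 for those above background on all arrays. The log2 range of the brightest probe set was 0.66 for Nfib with median centring. Averaged over a gene's probe sets it was 1.22 for Nfib, 0.86 for Nfic and 2.23 for Nfix. Leaving out a replicate gave 0.60 to 1.50 for Nfia, 0.043 to 0.24 for Nfib, 0.48 to 2.32 for Nfic and 1.64 to 4.69 for Nfix; the lowest values are those without replicate 3 for Nfia and without replicate 9 for the others. The cause of these differences was not tested, other than that fewer arrays or fewer probe sets enter. Counts of probe sets could not be given when probe sets were averaged, nor the first count with no filter. No paired analysis was possible because the samples form 1 group. Values below background limit Nfic on all but 1 array.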
